A study of Mus musculus with 10 samples.

Results

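The cadherins and non-clustered protocadherins are cell surface adhesion proteins, taken here as every gene named Cdh or Pcdh followed by a number with at most 1 further letter. The rule found 35 genes among 23283 named genes and joined loci of the 2.5-month table, and the same 35 among 54427 genes of the 3-month table. They comprised 23 cadherins and 12 protocadherins, and none stood in a joined locus. RNA was sequenced from mouse somatosensory cortex after conditional deletion of Nsd1, a histone H3 lysine 36 methyltransferase, in a pair of models. Nsd1Nex-cKO mice aged 2.5 months gave 3 libraries (Nex_cKO) and their controls 3 (Nex_Ctrl, of which replicates 1 and 2 were Nsd1fl/+ and replicate 3 was Nsd1fl/fl). Nsd1Camk2a-cKO mice aged 3 months gave 2 libraries (Camk2a_cKO) and Nsd1fl/+ controls of that age gave 2 (Camk2a_Ctrl). The Nex driver is the Neurod6 locus, active in newly postmitotic excitatory neurons, while the Camk2a driver acts in excitatory neurons at later ages. Glia, vessels and interneurons in these samples therefore lie outside the targeted cells, and the labels do not state whether controls carried Cre. In bulk tissue, fewer cells of a type and less RNA per cell cannot be told apart.

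Classical cadherins bind cadherins on the neighbouring cell through calcium-dependent extracellular repeats and hold the actin skeleton through catenins bound to their tails. Type I and type II cadherins differ in the adhesive pocket of their outermost repeat, and type II genes are known for patterned expression over cortical layers and areas. The δ protocadherins adhere weakly, have other cytoplasmic tails and act in axon growth, cell sorting and synapse formation. NSD1 places methyl groups on histone H3 lysine 36, a mark that recruits DNA methyltransferases to chromatin.

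The stretches before the RefSeq start sites of 3 called members (GRCm38.p6) are shown because the deposited values bear on their transcription. CG pairs, in capitals, are among the places where DNA methylation can fall, and the libraries here measured RNA. Each stretch holds the 250 bases before the start, read 5′ to 3′ on the gene's strand. That of Pcdh8 lies at chr14:79771313-79771562 on the minus strand, that of Cdh9 at chr15:16728665-16728914 on the plus strand, and that of Cdh24 at chr14:54641365-54641614 on the minus strand.
Pcdh8: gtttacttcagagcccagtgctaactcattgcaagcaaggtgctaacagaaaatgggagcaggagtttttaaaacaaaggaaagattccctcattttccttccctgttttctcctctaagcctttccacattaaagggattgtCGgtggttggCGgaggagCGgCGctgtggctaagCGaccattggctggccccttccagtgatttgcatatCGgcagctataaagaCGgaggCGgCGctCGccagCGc
Cdh9: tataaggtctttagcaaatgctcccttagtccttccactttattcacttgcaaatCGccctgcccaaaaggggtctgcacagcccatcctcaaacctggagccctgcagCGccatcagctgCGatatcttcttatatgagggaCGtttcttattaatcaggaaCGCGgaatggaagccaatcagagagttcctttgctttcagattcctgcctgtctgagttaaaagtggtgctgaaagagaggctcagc
Cdh24: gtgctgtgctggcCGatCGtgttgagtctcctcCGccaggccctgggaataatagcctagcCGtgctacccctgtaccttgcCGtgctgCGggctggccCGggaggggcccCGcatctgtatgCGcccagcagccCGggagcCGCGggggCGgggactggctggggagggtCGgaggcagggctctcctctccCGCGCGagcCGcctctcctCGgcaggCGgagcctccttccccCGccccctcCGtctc
Pcdh8, which was higher in Nex_cKO cortex, had 11 CG pairs here, against 6 for Cdh9 and 22 for Cdh24, which were both lower. The median over 32526 such stretches of all genes was 6 (quartiles 2 and 16). The 25 stretches counted here, from 22 of the 35 members, had a median of 10 and ranged from 0 (Cdh26) to 30 (Cdh22). They are counts of stretches and not of genes, since Cdh7 and Pcdh9 gave more than 1 each and those of Pcdh9 overlap. The remaining members, Cdh2, Pcdh1 and Pcdh12 among them, were not counted, so the 25 do not describe the whole family. The letters TATAAA, searched on both strands, began 30 bases before the Pcdh8 start and were absent from the Cdh9 and Cdh24 stretches. They occurred in 12.3% of all stretches and in 2 of the 25. The palindromic pattern CANNTG occurred 3 times before Cdh9, 1 time before Cdh24 and 0 times before Pcdh8, in 13 of the 25 and in 66.2% of all stretches. These matches describe letters in a window and locate no factor.

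Values are FPKM (fragments per kilobase of gene scaled to library size) as deposited. Recovered reads numbered 16901717 to 20074933 per 3-month library, of which the members took 27201 to 35277, and the depth of the 2.5-month libraries is unknown. The 8 markers of excitatory neurons were above 0 in every library, the labelled tissue's main cell class. Their summed FPKM was 2517 to 2846 in Nex_cKO and 3137 to 3386 in Nex_Ctrl libraries. In the Camk2a model the sums were 1809 to 1924 in cKO and 1817 to 1890 in control libraries. Nsd1 had 4.31 and 4.99 FPKM in Camk2a_cKO, against 5.61 and 8.87 FPKM in Camk2a_Ctrl (log2 change -0.52, limma adjusted p = 0.685). The 2.5-month table gives Nsd1 only joined with Prelid1, at 91.0 to 118.1 FPKM in Nex_cKO and 125.1 to 141.4 FPKM in Nex_Ctrl libraries. Neurod6, the locus of the Nex driver, had 14.64 to 22.21 FPKM in Nex_cKO and 29.39 to 33.99 FPKM in Nex_Ctrl libraries. Its log2 change was -0.80 (limma adjusted p = 0.00719). Whether the driver allele had a part in the values of the members was not tested. Nex_cKO replicate 3 stood apart: the Y-linked gene Ddx3y reached 16.2 FPKM there and the X-inactivation transcript Xist 0.0035 FPKM. In the remaining 5 Nex libraries Ddx3y was listed at 0, while Xist ranged between 33.6 and 46.5 FPKM. Unnamed rows took 41.6% of all FPKM in replicate 3 and 2.33% to 19.4% in those 5. The Camk2a libraries resembled replicate 3 in this, with Ddx3y between 10.98 and 12.35 FPKM in all 4.

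The 9 δ protocadherins held about as much FPKM as the other 26 members together. Their share of the summed member FPKM was 49.9% in Nex_cKO and 51.1% in Nex_Ctrl, and 54.3% in Camk2a_cKO and 53.4% in Camk2a_Ctrl. Pcdh1, Pcdh7 and Pcdh9 of the δ1 group and Pcdh10 of the δ2 group led, with 41.6% in Nex_cKO and 44.6% in Nex_Ctrl together. Among classical cadherins the type II gene Cdh22 and the type I gene Cdh2, which encodes N-cadherin, were highest. Of the 35 members, 27 reached FPKM 1 in each of the 6 Nex libraries, and none of them entered through one group. Control means ranked the 35 genes alike in both tables (Spearman rho 0.919, n = 35 genes, a description across genes of tables normalised apart). Pcdh8 ranked 10 of 35 in Nex_Ctrl and 7 in Camk2a_Ctrl, Cdh9 ranked 19 and 23, and Cdh4 ranked 24 and 22.

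**Figure D1:**
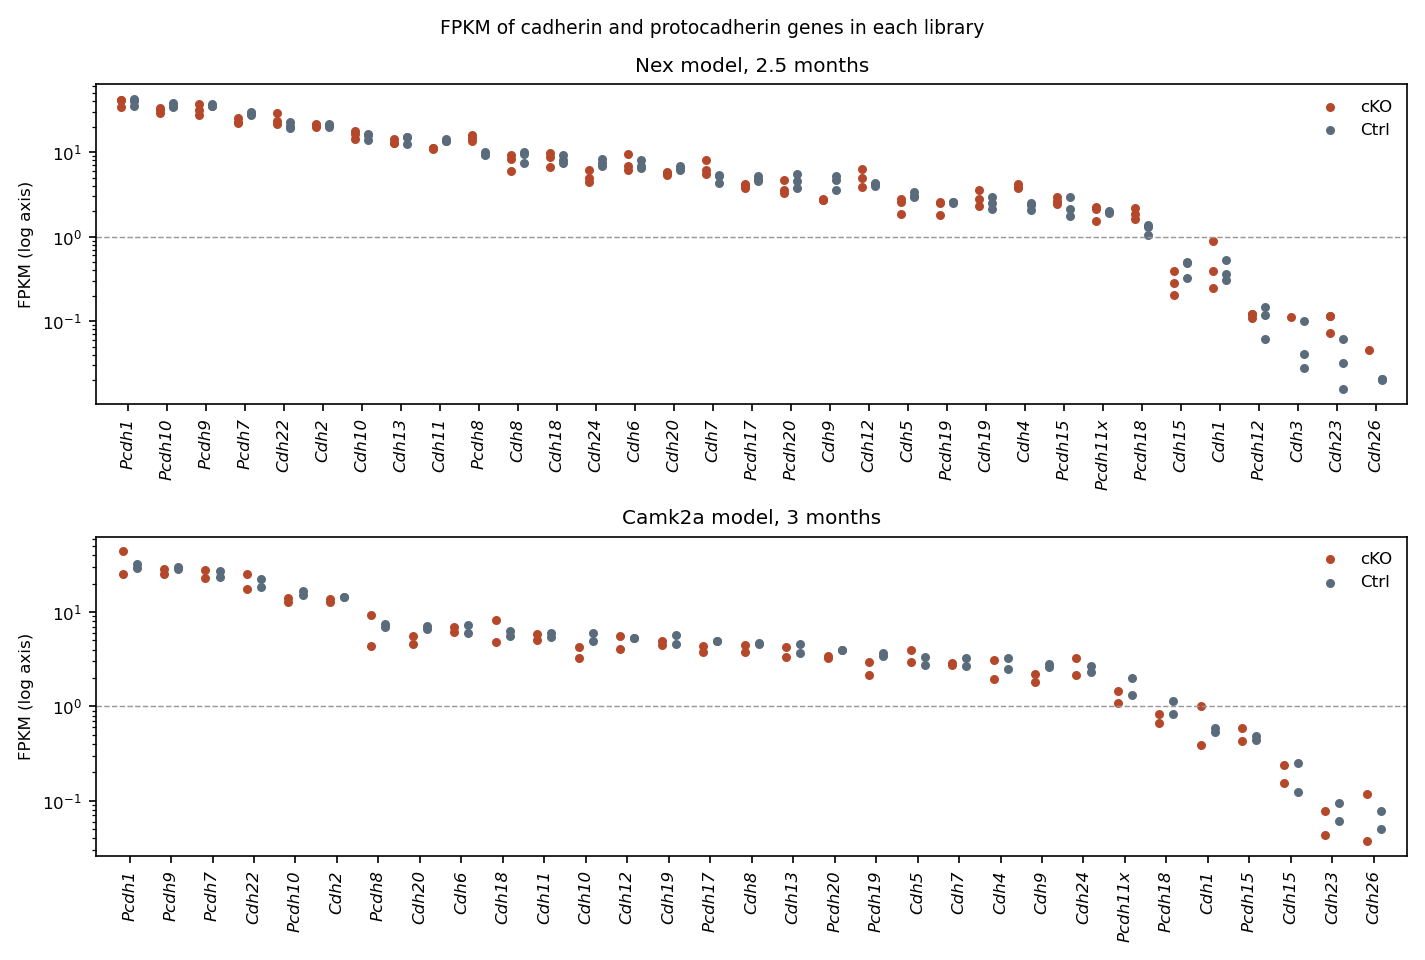
FPKM on a log axis of each member in each library, by control mean, with cKO left of Ctrl; libraries at 0 and members with a group mean of 0.01 or less are not drawn. The dashed line is FPKM 1. The 4 most abundant members in Nex_Ctrl were protocadherins, and Cdh15, Cdh3, Cdh23 and Cdh26 lay under the line in every library.

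The 8 members under FPKM 1 in all Nex libraries are known from other tissues. Cdh1 (E-cadherin of epithelia) had 0.391, 0.892 and 0.245 FPKM in Nex_cKO and 0.530, 0.306 and 0.366 FPKM in Nex_Ctrl. Cdh15 (M-cadherin of muscle) had 0.206 to 0.391 FPKM in Nex_cKO and 0.325 to 0.505 FPKM in Nex_Ctrl. Cdh3 (P-cadherin), Cdh17 (of intestine), Cdh23 (of hair-cell tip links), Cdh26 and Pcdh12 stayed at or under 0.146 FPKM in every Nex library, and Cdh16 (of kidney) was listed at 0 in all 6. These genes were below the filter and were not tested. In the 3-month table, Cdh16 had 2 reads in Camk2a_cKO replicate 1 and 0 in the other 3 libraries, where a count of 0 allows 3 reads or 0.04 to 0.0471 FPKM. Pcdh15, the other tip-link gene, also made by oligodendrocyte precursors, was tested in the Nex model, with 2.42, 2.65 and 2.93 FPKM in Nex_cKO and 1.76, 2.92 and 2.12 FPKM in Nex_Ctrl (limma adjusted p = 0.494). In the Camk2a table it was below the filter, at 0.430 and 0.593 FPKM in cKO and 0.491 and 0.445 FPKM in control libraries. The 6 markers of those precursors, none at 0, summed to 75.7 to 106.1 FPKM in Nex_cKO and 104.5 to 111.2 FPKM in Nex_Ctrl. Olig1 held most of that sum (means 54.51 and 60.44 FPKM) and was not called. Of the 6 markers, 1 was called higher (Cspg4) and 2 lower (Sox10 and Gpr17), with limma adjusted p of 0.0213, 0.0188 and 0.0216. The part of these markers in the Pcdh15 values was not tested. Pcdh18, which passed the filter in the Nex model, had 0.827 and 0.665 FPKM in Camk2a_cKO and 0.823 and 1.13 FPKM in Camk2a_Ctrl and was not tested there.

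In the Nex model the comparison asks which members differ in adult cortex after deletion in postmitotic excitatory neurons. Cdh4 and Pcdh8 were higher in Nex_cKO, and the type II genes Cdh9, Cdh11 and Cdh24 were lower. These 5 were called among 27 tested members by limma at Benjamini-Hochberg adjusted p under 0.05, where 8.53% of all 12528 genes tested were called (4.47% higher, 4.06% lower). The groups did not overlap for 12 of 27 members, with cKO above for 4 and below for 8. Over all genes tested they did not overlap for 30.4%, with cKO above for 11.5% and below for 18.9%. At an unadjusted p under 0.05 there were 10 members, and 23.5% of all genes. The median log2 change was -0.02 over the members and -0.04 over all genes tested. The members' median was positive after median ratio rescaling (0.04) and after rescaling to named rows (0.09), so the sign of the family's median depended on the scaling.

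Among type I genes, Cdh4 encodes R-cadherin, which binds itself and N-cadherin. Cdh4 (ENSMUSG00000000305, GRCm38 chromosome 2, 179442431 to 179899373, plus strand) had 3.83, 3.74 and 4.18 FPKM in Nex_cKO, against 2.09, 2.36 and 2.50 FPKM in Nex_Ctrl. All 3 Nex_cKO libraries were above all 3 Nex_Ctrl libraries. The means were 3.92 ± 0.234 FPKM in Nex_cKO and 2.32 ± 0.208 FPKM in Nex_Ctrl (SD, n = 3 each), a ratio of 1.69. The log2 change was 0.57 (SE 0.10, limma adjusted p = 0.00927), and the call held in 15 of 15 alternatives that tested the gene, with adjusted p up to 0.0454. Cdh2 had 21.7, 19.7 and 21.0 FPKM in Nex_cKO and 21.3, 20.8 and 20.1 FPKM in Nex_Ctrl. Its groups overlapped, with a log2 change of 0.00 (SE 0.07, limma adjusted p = 0.977).

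Of 13 type II genes, 3 were lower and 0 higher. Cdh9, known from hippocampal mossy fibre synapses, had 2.70, 2.81 and 2.70 FPKM in Nex_cKO, against 3.59, 4.67 and 5.19 FPKM in Nex_Ctrl. The 3 Nex_cKO libraries lay close together and below every Nex_Ctrl library. Its means were 2.74 ± 0.0637 FPKM in Nex_cKO and 4.48 ± 0.818 FPKM in Nex_Ctrl (SD, n = 3 each; log2 change -0.54, SE 0.12, limma adjusted p = 0.0305). Its limma adjusted p was 0.0958 without Nex_cKO replicate 1, 0.112 without Nex_Ctrl replicate 2, 0.121 without Nex_Ctrl replicate 3, 0.0586 with no filter on low values and 0.0863 after rescaling to named rows.

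Cdh11 (OB-cadherin, first known from bone-forming cells and also made by neurons) had 10.8, 11.2 and 11.2 FPKM in Nex_cKO, against 14.2, 13.7 and 13.6 FPKM in Nex_Ctrl. Spread within each group was small beside the gap between them. The means were 11.1 ± 0.249 FPKM in Nex_cKO and 13.8 ± 0.303 FPKM in Nex_Ctrl (SD, n = 3 each; log2 change -0.29, SE 0.07, limma adjusted p = 0.0359). The limma adjusted p was 0.123 and 0.055 without Nex_cKO replicates 1 and 2, and 0.135, 0.111 and 0.114 without Nex_Ctrl replicates 1, 2 and 3. It was 0.0725 after quantile normalization, 0.0815 after median ratio rescaling and 0.272 after rescaling to named rows.

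Cdh24, a type II cadherin that binds catenins, had 4.92, 6.22 and 4.42 FPKM in Nex_cKO, against 8.32, 6.91 and 7.50 FPKM in Nex_Ctrl. Nex_cKO replicate 2 was nearest to the controls, and the groups did not overlap. The means were 5.19 ± 0.930 FPKM in Nex_cKO and 7.57 ± 0.712 FPKM in Nex_Ctrl (SD, n = 3 each; log2 change -0.48, SE 0.12, limma adjusted p = 0.0475). The call held in 4 of 16 alternatives. It was lost without Nex_cKO replicate 1 (0.141), Nex_cKO replicate 3 (0.082) and Nex_Ctrl replicates 1, 2 and 3 (0.171, 0.0838 and 0.136), all limma adjusted p. Among the other settings that lost it were no filter on low values (0.0808), a filter of FPKM 5 (0.0589), quantile normalization (0.0605), median ratio rescaling (0.0684), no intensity trend (0.0538) and rescaling to named rows (0.0887). Excitatory neuron markers were lower in sum in Nex_cKO libraries (values above), with 1 of 8 called higher (Neurod2) and 1 lower (Tbr1). Summed FPKM of other marker lists also separated in the Nex model. Hippocampal markers had 54.8 to 70.0 FPKM in Nex_cKO and 25.2 to 27.4 FPKM in Nex_Ctrl, with Wfs1 and Lct called higher and Dsp at 0 in at least 1 library. Wfs1 held most of that sum, with means of 52.98 FPKM in Nex_cKO and 19.08 FPKM in Nex_Ctrl. Lct entered the test through its cKO libraries (means 1.487 and 0.339 FPKM). Prox1, Zbtb20 and Calb2 were not called, with log2 changes of 0.05, 0.23 and -0.06 (limma adjusted p 0.824, 0.41 and 0.809). Red blood cell markers had 50.7 to 95.05 FPKM in Nex_cKO and 124.5 to 272.4 FPKM in Nex_Ctrl, with the globin genes called lower. Oligodendrocyte markers had 1310 to 1440 FPKM in Nex_cKO and 1637 to 1761 FPKM in Nex_Ctrl, with 0 called. Choroid plexus markers had 2.86 to 5.03 FPKM in Nex_cKO and 1.518 to 1.651 FPKM in Nex_Ctrl. Of these 6, 1 (Ttr) was tested, and it was not called. Means of Ttr, Folr1, Kl and Aqp1 were above those of Nex_Ctrl, and means of Prlr and Clic6 were below. Thalamic markers had 19.8 to 21.1 FPKM in Nex_cKO and 15.97 to 17.21 FPKM in Nex_Ctrl, with 0 called. Pericyte markers had 44.0 to 50.2 FPKM in Nex_cKO and 50.8 to 60.0 FPKM in Nex_Ctrl, with 0 of 6 called. Vtn had the widest gap (means 23.27 and 31.85 FPKM), while Pdgfrb and Kcnj8 changed the other way. Meningeal markers had 257.6 to 295.1 FPKM in Nex_cKO and 298.6 to 306.3 FPKM in Nex_Ctrl, with 0 called. Most of that sum was Col1a1 in a locus joined with Ppp1r9b (means 267.4 and 283.9 FPKM). It therefore says little of the other meningeal markers. Col1a1 alone had means of 1.55 FPKM in Camk2a_cKO and 0.844 FPKM in Camk2a_Ctrl. The part of these cell classes and regions in the 5 called members was not tested.

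The other type II genes did not pass. Cdh7 had 5.59, 6.09 and 7.98 FPKM in Nex_cKO and 5.18, 5.40 and 4.33 FPKM in Nex_Ctrl (log2 change 0.33, SE 0.13, limma adjusted p = 0.175), with replicate 3 of Nex_cKO the highest. Cdh22 had 21.8, 28.9 and 23.5 FPKM in Nex_cKO and 20.1, 19.3 and 23.0 FPKM in Nex_Ctrl, and its groups overlapped. Cdh5 encodes VE-cadherin of vessel walls. It had 2.77, 2.61 and 1.87 FPKM in Nex_cKO and 3.41, 2.94 and 3.05 FPKM in Nex_Ctrl (limma adjusted p = 0.228). The 7 endothelial markers, none at 0 in any library, summed to 58.4 to 68.2 FPKM in Nex_cKO and 79.1 to 104.4 FPKM in Nex_Ctrl, and 2 of them, Cldn5 and Egfl7, were called lower. Their part in the Cdh5 values was not tested. Cdh20 had 5.34 to 5.85 FPKM in Nex_cKO and 6.22 to 6.90 FPKM in Nex_Ctrl, without overlap (limma adjusted p = 0.245). Cdh8, known for marking areas and layers of developing cortex, had 8.40, 6.06 and 9.22 FPKM in Nex_cKO and 9.43, 7.53 and 10.02 FPKM in Nex_Ctrl (limma adjusted p = 0.529). Cdh6, Cdh10, Cdh12, Cdh18 and Cdh19 overlapped between groups, with log2 changes from 0.01 (Cdh18) to 0.22 (Cdh12). For all 5 of them, Nex_cKO replicate 3 was the highest of the 6 libraries. Cdh10 was the most abundant of these 5, with 16.2, 14.4 and 18.01 FPKM in Nex_cKO and 14.0, 16.4 and 16.1 FPKM in Nex_Ctrl. Cdh13, or T-cadherin, which is held by a lipid anchor and has no cytoplasmic tail, had 12.7, 12.9 and 14.4 FPKM in Nex_cKO and 12.6, 15.3 and 15.0 FPKM in Nex_Ctrl (limma adjusted p = 0.621).

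Among δ2 protocadherins, Pcdh8 rose. Its product, known as arcadlin in the rat, is induced by neuronal activity there and promotes uptake of N-cadherin from synapses. Pcdh8 (ENSMUSG00000036422, GRCm38 chromosome 14, 79766775 to 79771312, minus strand) had 14.8, 13.5 and 15.9 FPKM in Nex_cKO, against 9.20, 9.95 and 9.52 FPKM in Nex_Ctrl. The lowest Nex_cKO library stood well above the highest Nex_Ctrl library. The means were 14.7 ± 1.21 FPKM in Nex_cKO and 9.56 ± 0.377 FPKM in Nex_Ctrl (SD, n = 3 each), a ratio of 1.54. The log2 change was 0.57 (SE 0.08, limma adjusted p = 0.00333), and the call held in 16 of 16 alternatives with adjusted p up to 0.0212. The activity-induced genes Arc, Fos and Egr1, added after values were seen, gave log2 changes of -0.61, -0.07 and -0.62 with limma adjusted p of 0.388, 0.949 and 0.228.

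The remaining δ2 genes did not pass. Pcdh18 had 1.88, 1.63 and 2.17 FPKM in Nex_cKO and 1.05, 1.31 and 1.36 FPKM in Nex_Ctrl, a gap without overlap (log2 change 0.37, SE 0.12, limma adjusted p = 0.11). Pcdh17, a presynaptic protocadherin of corticobasal circuits, had 4.14, 3.82 and 4.16 FPKM in Nex_cKO and 4.57, 5.22 and 4.85 FPKM in Nex_Ctrl (limma adjusted p = 0.188). Pcdh10 had 31.7, 29.1 and 33.4 FPKM in Nex_cKO and 34.1, 38.4 and 34.8 FPKM in Nex_Ctrl (limma adjusted p = 0.212). Both lay below their controls in every Nex_cKO library. Pcdh19, an X-linked gene whose human counterpart is mutated in an epilepsy of females, had 2.53, 1.79 and 2.56 FPKM in Nex_cKO and 2.48 to 2.60 FPKM in Nex_Ctrl. Nex_cKO replicate 3, the library with Y-linked transcripts, was within the range of the other libraries for Pcdh19.

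No δ1 protocadherin passed with all libraries. Pcdh7 had 22.8, 22.1 and 25.6 FPKM in Nex_cKO and 28.9, 29.8 and 27.3 FPKM in Nex_Ctrl, without overlap (log2 change -0.28, SE 0.08, limma adjusted p = 0.068). When Nex_cKO replicate 3 was left out it passed, at a log2 change of -0.34 (limma adjusted p = 0.0169). Pcdh1 had 41.9, 41.0 and 34.3 FPKM in Nex_cKO and 40.8, 42.6 and 35.3 FPKM in Nex_Ctrl. The third library was the lowest in both groups. Pcdh9 had 31.6, 27.8 and 37.4 FPKM in Nex_cKO and 35.2, 34.7 and 37.0 FPKM in Nex_Ctrl, and X-linked Pcdh11x had 1.55 to 2.26 FPKM in Nex_cKO and 1.89 to 2.005 FPKM in Nex_Ctrl. Pcdh20, known for placing layer 4 neurons in mouse cortex, had 3.56, 3.25 and 4.66 FPKM in Nex_cKO and 3.74, 4.52 and 5.54 FPKM in Nex_Ctrl, which overlapped (limma adjusted p = 0.439).

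**Figure D2:**
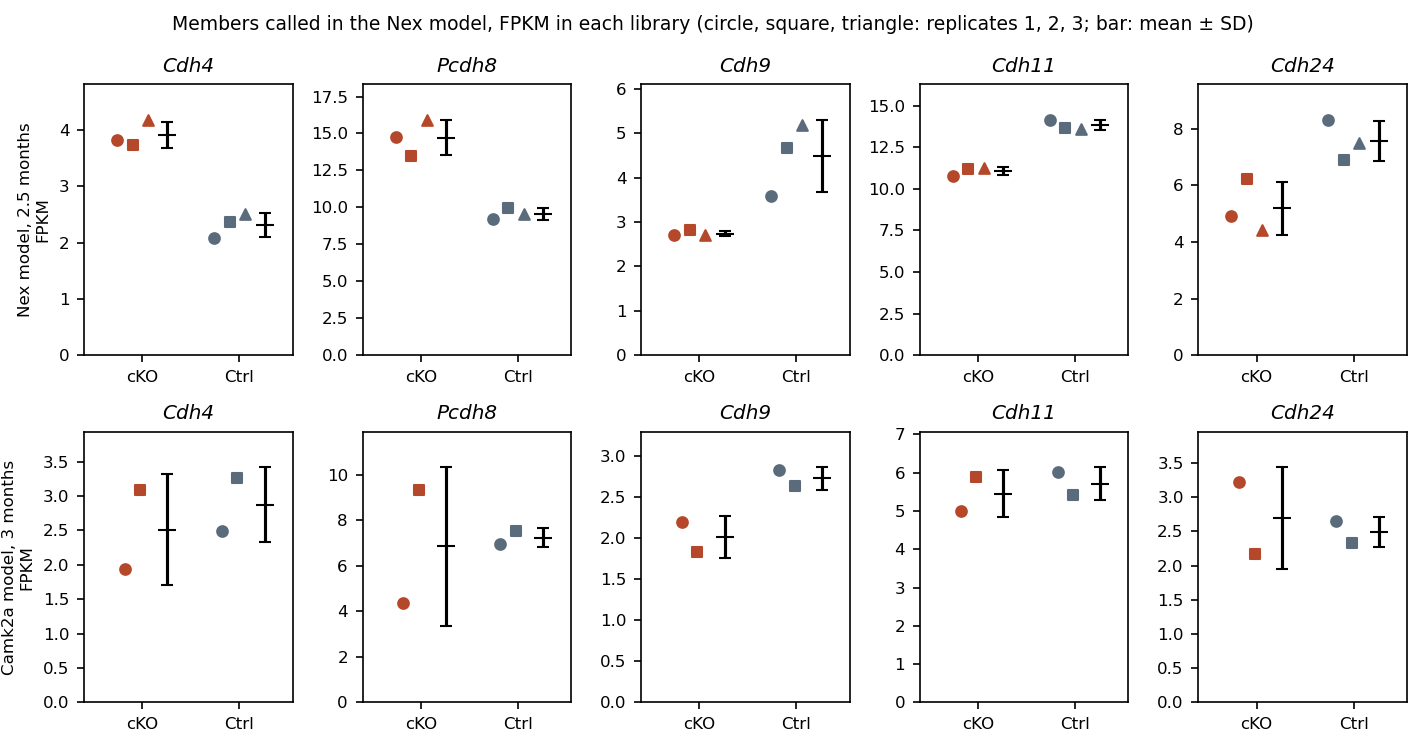
FPKM of the 5 called members in each library, upper row Nex and lower row Camk2a, with cKO left of Ctrl; bars beside the points are mean ± SD. Groups separate for all 5 in the Nex row, and in the Camk2a row for Cdh9 alone.

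Without Nex_cKO replicate 3, the library that stood apart, Cdh4, Pcdh8, Cdh9, Cdh11 and Pcdh7 were called. In this library the members were a median of 0.04 above the control mean on the log2(FPKM + 1) scale, against -0.01 and -0.19 in replicates 1 and 2. All genes tested had medians of -0.03 to -0.05 in the 3 libraries.

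In the Camk2a model, the comparison concerns deletion in neurons that had already matured. No member passed: limma called 0 of 25 tested members, and 0% of 12919 genes. At an unadjusted p under 0.05 there were 3 members, and 6.96% of all genes. Voom on recovered reads also called 0 members, with 3 at an unadjusted p under 0.05. Negative changes were found for 19 of 25 members, with a median log2 change of -0.11, against 6777 of 12919 genes and a median of -0.01 over all tested. These changes came mainly with 1 library: 24 of 25 members were below the control mean in Camk2a_cKO replicate 1 (median -0.22) and 14 of 25 in replicate 2 (median -0.03). The medians over all genes were -0.01 in both libraries. Without replicate 1 the members' median was -0.03, and without replicate 2 it was -0.22. In a list of 37 other adhesion genes, 29 of 35 tested had negative changes, with a median of -0.11, and 0 were called.

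**Figure D3:**
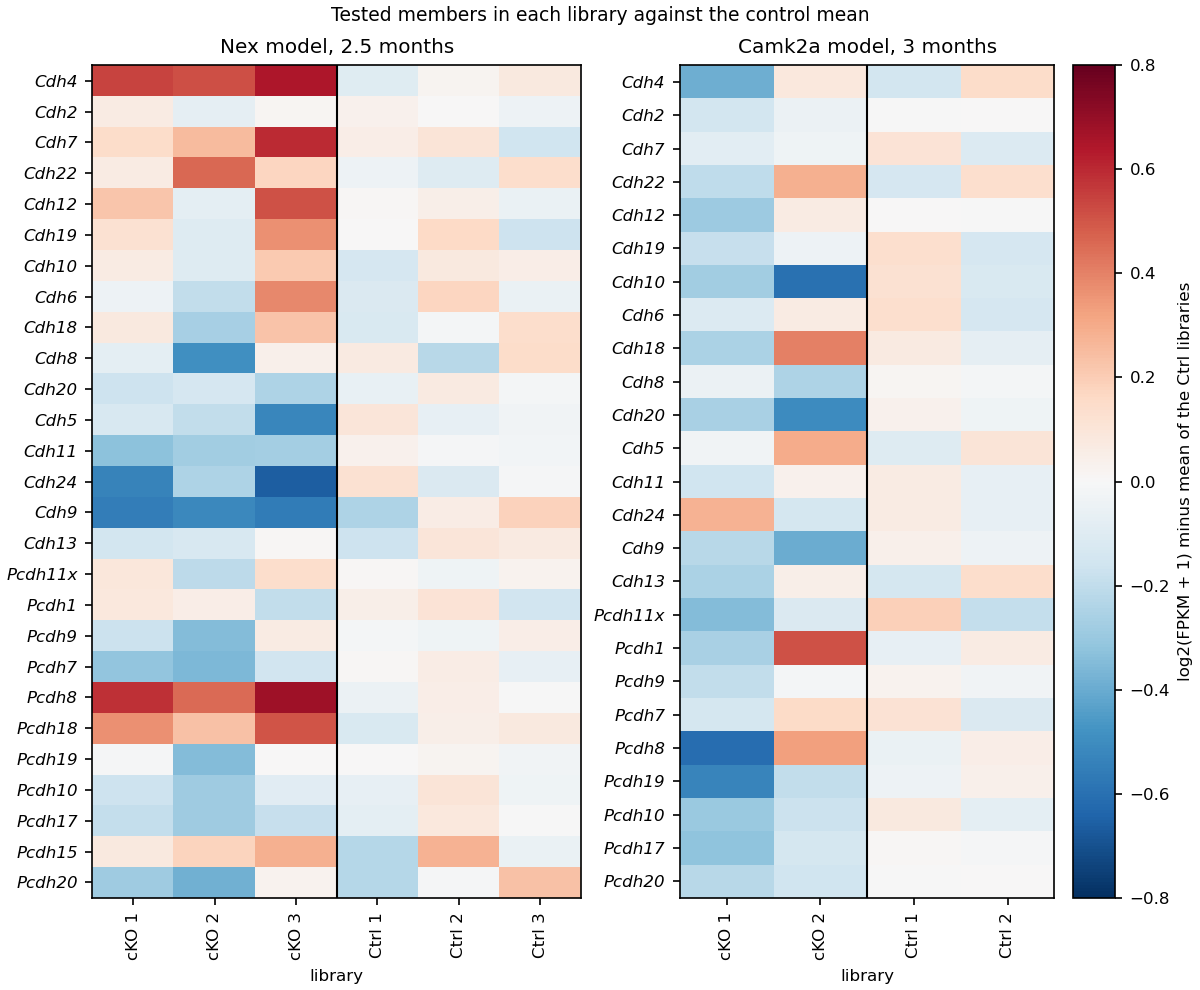
Each tested member (rows) in each library (columns), as log2(FPKM + 1) minus the mean of that model's Ctrl libraries; red is above and blue below, and cKO columns stand left of the line. Cdh4 and Pcdh8 are red in all 3 Nex_cKO columns, and Camk2a_cKO replicate 1 is blue for 24 of 25 members.

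The smallest p belonged to Cdh20, Cdh10 and Pcdh19. Cdh20 had 5.56 and 4.54 FPKM in Camk2a_cKO, against 7.06 and 6.66 FPKM in Camk2a_Ctrl (log2 change -0.38, SE 0.12, limma adjusted p = 0.598). Cdh10 had 4.29 and 3.24 FPKM in Camk2a_cKO, against 5.98 and 4.89 FPKM in Camk2a_Ctrl (log2 change -0.44, SE 0.15, limma adjusted p = 0.65). Pcdh19 had 2.17 and 2.98 FPKM in Camk2a_cKO, against 3.44 and 3.69 FPKM in Camk2a_Ctrl (log2 change -0.36, SE 0.15, limma adjusted p = 0.714). The cKO libraries lay below the controls for each of these 3. Pcdh17 had 3.77 and 4.41 FPKM in Camk2a_cKO and 4.98 and 4.92 FPKM in Camk2a_Ctrl (limma adjusted p = 0.776), from 872 and 963 reads in cKO and 1114 and 1264 reads in control libraries. In all, 9 of 25 members had both cKO libraries below both controls and 0 had them above, where 21.1% and 16.2% of all genes did (37.3% in either direction).

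The members called in the Nex model had these values in the Camk2a model. Cdh4 had 1.94 and 3.08 FPKM in Camk2a_cKO and 2.49 and 3.26 FPKM in Camk2a_Ctrl. Pcdh8 had 4.38 and 9.32 FPKM in Camk2a_cKO, from 354 and 711 reads, and 6.94 and 7.52 FPKM in Camk2a_Ctrl, from 542 and 675 reads. The Camk2a_cKO libraries enclosed both controls for Pcdh8, and Cdh4 overlapped. Cdh9 had 2.19 and 1.83 FPKM in Camk2a_cKO and 2.82 and 2.63 FPKM in Camk2a_Ctrl, below in both (log2 change -0.31, SE 0.13, limma adjusted p = 0.719). Cdh11 had 5.01 and 5.88 FPKM in Camk2a_cKO and 6.02 and 5.41 FPKM in Camk2a_Ctrl, and Cdh24 had 3.22 and 2.16 FPKM in Camk2a_cKO and 2.65 and 2.33 FPKM in Camk2a_Ctrl, both overlapping.

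The most abundant members of each class did not pass either. Pcdh1 had 25.3 and 44.0 FPKM in Camk2a_cKO and 29.2 and 32.0 FPKM in Camk2a_Ctrl, so that its cKO libraries again enclosed the controls. Cdh22 had 17.6 and 25.05 FPKM in Camk2a_cKO and 18.5 and 22.6 FPKM in Camk2a_Ctrl. Cdh2 had 12.8 and 13.8 FPKM in Camk2a_cKO and 14.29 and 14.30 FPKM in Camk2a_Ctrl. Pcdh10 had 12.8 and 14.0 FPKM in Camk2a_cKO and 16.9 and 15.0 FPKM in Camk2a_Ctrl, with cKO below (limma adjusted p = 0.737). Pcdh20 had 3.26 and 3.45 FPKM in Camk2a_cKO and 3.96 and 3.98 FPKM in Camk2a_Ctrl, also with cKO below (limma adjusted p = 0.808). Cdh13 had 3.30 and 4.28 FPKM in Camk2a_cKO and 3.65 and 4.63 FPKM in Camk2a_Ctrl, which overlapped. The δ1 genes overlapped too: Pcdh7 had 22.8 and 28.2 FPKM in Camk2a_cKO and 27.4 and 23.2 FPKM in Camk2a_Ctrl. Pcdh9 had 25.4 and 28.9 FPKM in Camk2a_cKO and 29.8 and 28.6 FPKM in Camk2a_Ctrl, and Pcdh11x had 1.08 and 1.44 FPKM in Camk2a_cKO and 2.02 and 1.32 FPKM in Camk2a_Ctrl. Cdh8 had 4.46 and 3.76 FPKM in Camk2a_cKO and 4.72 and 4.57 FPKM in Camk2a_Ctrl, with cKO below. The type II genes Cdh6, Cdh7, Cdh12, Cdh18 and Cdh19 overlapped, with log2 changes from -0.11 (Cdh12) to 0.08 (Cdh18). Cdh5 had 2.97 and 3.96 FPKM in Camk2a_cKO and 2.77 and 3.35 FPKM in Camk2a_Ctrl, beside endothelial markers of 47.1 to 53.6 FPKM in sum in Camk2a_cKO and 40.3 to 41.5 FPKM in Camk2a_Ctrl.

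**Figure D4:**
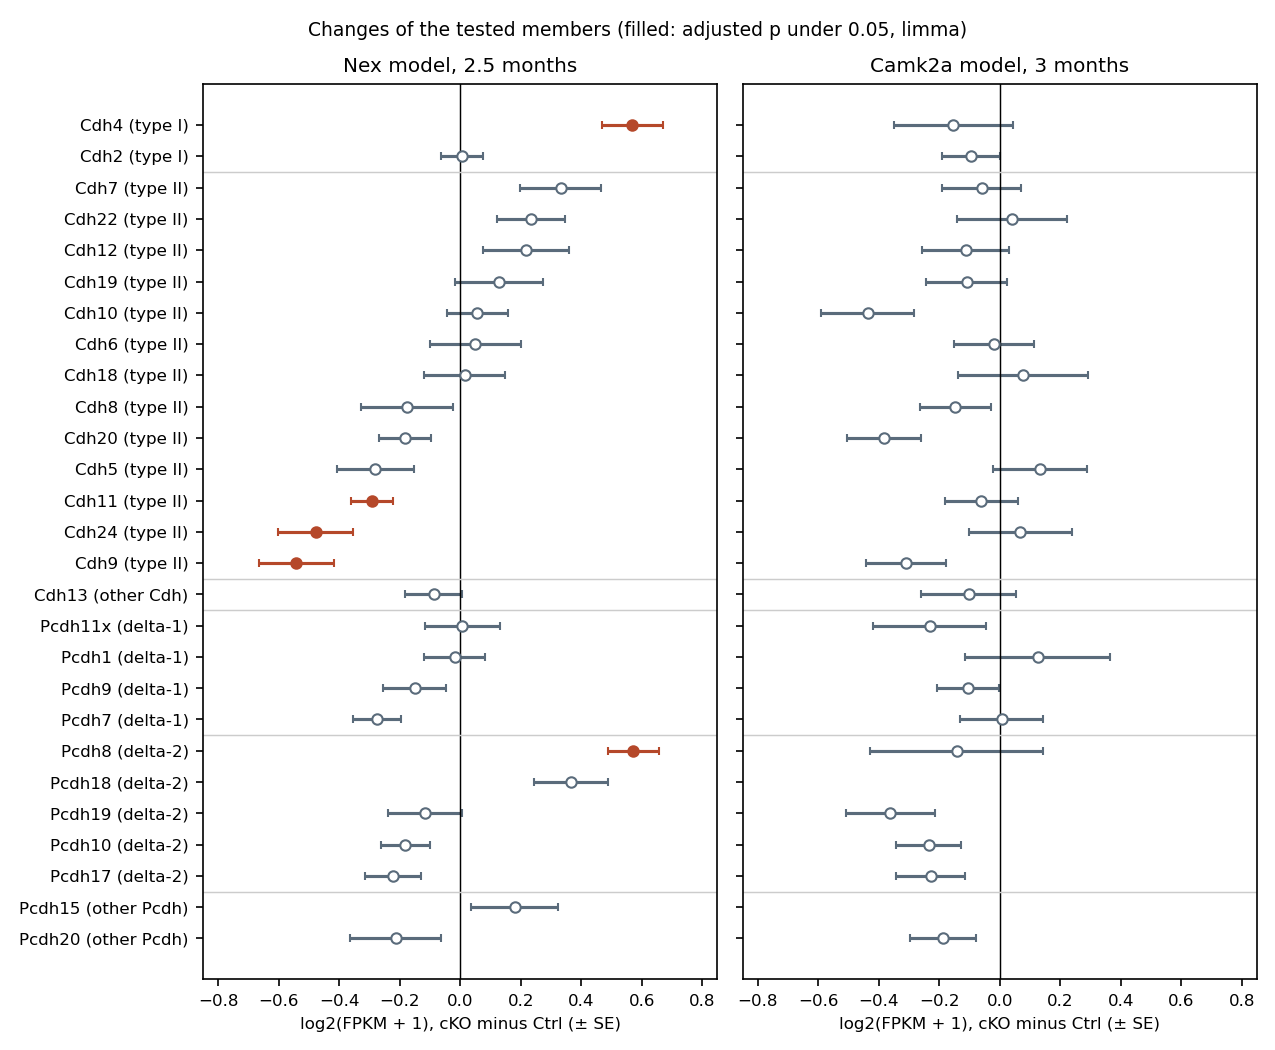
Change of each tested member, as cKO minus Ctrl on the log2(FPKM + 1) scale with its SE, for the Nex (left) and Camk2a (right) model, by subfamily. Filled points are the 5 members with limma adjusted p under 0.05, all in the Nex panel; a row without a point was below the filter.

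The change itself was compared between models on 10408 genes tested in both tables, each change being taken within its own table. No member passed: limma called 0 of 25 members, against 0.528% of all genes, and 4 members had an unadjusted p under 0.05, against 13.3% of all genes. With 2 Camk2a libraries per group, this does not show that the changes were alike. Cdh4 had the smallest p, with a difference (Nex minus Camk2a) of 0.72 (SE 0.21, limma adjusted p = 0.175). The difference was 0.71 for Pcdh8 (SE 0.28, limma adjusted p = 0.326) and -0.55 for Cdh24 (SE 0.21, limma adjusted p = 0.32). It was 0.49 for Cdh10 (SE 0.18, limma adjusted p = 0.29). The Pcdh8 difference moved with the Camk2a_cKO library left out: it was 0.25 without replicate 1 (limma adjusted p = 0.532) and 1.18 without replicate 2 (limma adjusted p = 0.00832). Driver, age, table and the Y-linked transcripts of most libraries differ together between the models and cannot be told apart. Cdh9, Cdh20, Pcdh10 and Pcdh17 had every cKO library below every control in both models, 4 of 25 members, where 4.92% of all genes did. Members above in both were 0, against 2.09% of all genes. Members with opposite separation were also 0, against 1.59% (Nex_cKO above, Camk2a_cKO below) and 2.83% (Nex_cKO below, Camk2a_cKO above) of all genes.

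Members lie near each other on several chromosomes. On chromosome 15, Cdh6, Cdh9, Cdh10, Cdh12 and Cdh18 follow each other over 10.45 Mb with Nex log2 changes of 0.05, -0.54, 0.06, 0.22 and 0.01 in that order, and Cdh9 alone was called. On chromosome 14, Cdh24 (-0.48, called), Pcdh8 (0.57, called), Pcdh17 (-0.22), Pcdh20 (-0.21) and Pcdh9 (-0.15) spread over 39.26 Mb. On chromosome 8, Cdh8 (-0.18), Cdh11 (-0.29, called), Cdh5 (-0.28) and Cdh13 (-0.09) were the tested ones of 8 members. Tested members spanned a median of 153.5 kb from first to last base in the Nex set, against 26.8 kb for all 11525 tested genes with a position. Span and log2 change had Spearman rho 0.16 over 27 members and 0.15 over all genes in the Nex model. The values in the Camk2a model were -0.06 over 25 members and -0.16 over all genes, descriptions across genes.

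Genes that act with cadherins were described from lists. Of 13 tested catenins and partners, 1 was lower and 0 higher in Nex_cKO, with a median log2 change of -0.09. That gene was Arvcf, a p120 catenin relative, at 6.59 ± 0.441 FPKM in Nex_cKO and 8.58 ± 0.479 FPKM in Nex_Ctrl (SD, n = 3 each; log2 change -0.34, limma adjusted p = 0.0482). Its call held in 4 of 16 alternatives and was lost without each of the 6 libraries in turn (limma adjusted p 0.0507 to 0.181). Ctnnb1, or β-catenin, had 111.3 ± 1.86 FPKM in Nex_cKO and 111.8 ± 3.80 FPKM in Nex_Ctrl (SD, n = 3 each; limma adjusted p = 0.97).

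Of 10 tested cadherin superfamily genes outside the family, 1 was higher and 1 lower in Nex_cKO (median -0.06). Cdhr2, a cadherin of intestinal microvilli, had 2.33 ± 0.796 FPKM in Nex_cKO and 0.511 ± 0.162 FPKM in Nex_Ctrl (SD, n = 3 each; log2 change 1.11, limma adjusted p = 0.0073), and it entered the test through its cKO libraries. Clstn2, a calsyntenin of postsynaptic membranes, had 17.1 ± 0.898 FPKM in Nex_cKO and 23.5 ± 0.508 FPKM in Nex_Ctrl (SD, n = 3 each; log2 change -0.44, limma adjusted p = 0.00539). Its limma adjusted p was 0.063 after rescaling to named rows. Of 9 tested proteases that cut cadherins and of 10 genes of the WAVE actin complex, 0 passed in either direction, with 2 and 1 at an unadjusted p under 0.05 and medians of -0.14 and 0.07.

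Of 37 other adhesion genes, 2 were lower and 0 higher in Nex_cKO, with a median of -0.01. Nectin1, named Pvrl1 in the table, had 7.46 ± 2.66 FPKM in Nex_cKO and 16.3 ± 0.606 FPKM in Nex_Ctrl (SD, n = 3 each; log2 change -1.09, limma adjusted p = 0.0149). Its limma adjusted p was 0.066, 0.0514 and 0.0528 without Nex_Ctrl replicates 1, 2 and 3. Ncam2 had 10.8 ± 0.361 FPKM in Nex_cKO and 14.8 ± 1.18 FPKM in Nex_Ctrl (SD, n = 3 each; log2 change -0.42, limma adjusted p = 0.0153). Its limma adjusted p was 0.0511, 0.0747 and 0.0735 without Nex_cKO replicate 1 and Nex_Ctrl replicates 1 and 2, 0.0875 with rows of one name summed and 0.0869 after rescaling to named rows. In the Camk2a model 0 genes of these 5 lists passed, with 6 of the other adhesion genes and 0 of the rest at an unadjusted p under 0.05. Ncam2 had 6.33 ± 0.789 FPKM in Camk2a_cKO and 10.08 ± 1.13 FPKM in Camk2a_Ctrl there (SD, n = 2 each; limma adjusted p = 0.471).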

How the data were processed

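RNA was measured in 10 libraries of mouse somatosensory cortex, extracted with RNAiso Plus and prepared with an NEBNext Ultra II RNA kit, per the labels' protocols. The authors deposited FPKM values in 2 tables, 1 per model. Per the submitters' processing notes, Cufflinks 2.2.1, STAR, cutadapt and DESeq2 were among the tools, and GRCm38 and mm10 are named as builds, with no role or order. The 2.5-month table had 29610 rows, 4463 unnamed. In the 3-month table FPKM times gene length gave whole reads for 100% of values (tolerance 0.1).

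The row of highest mean was kept for a repeated name. In each table, genes were kept where FPKM reached 1 in 3 (Nex) or 2 (Camk2a) libraries or more, the size of the smaller group, and fitted as log2(FPKM + 1), cKO against control, with limma 3.58.1 (intensity trend) in R 4.3.3. The pseudocount of 1 understates changes of low genes. P-values are two-sided. Benjamini-Hochberg adjustment ran across each table's tested genes, and 0.05 was the threshold. P-values measure spread between samples, which may be technical, since the labels do not say that replicates were separate mice. "Rose", "fell", "higher", "lower" and "called" of a gene mean past this threshold. The fits were tested on simulated data. Members and lists were chosen with earlier results of these data known. Values per library are given for called members, the most abundant member of each subfamily and the 4 further members of smallest p per model, and others as needed. The settings varied were the pseudocount (0.1), the filter (none, or FPKM 5), the scaling (quantile normalization, median ratio rescaling, or rescaling to named rows), the moderation (no intensity trend, or robust), a replicate block, summing rows of one name, each library left out in turn and voom on recovered reads. Upstream sequences are from the RefSeq promoter table.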

Additional observations from a re-analysis of the deposited data

Results flagged for a closer look

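The 2.5-month table had a second row named Pcdh8, which entered only the setting that summed rows of one name. It was listed at 0, 0.466 and 1.297 FPKM in Nex_cKO replicates 1, 2 and 3 and at 0 in all 3 Nex_Ctrl libraries, so that its signal exceeded the control level in 2 of 3 Nex_cKO libraries. The row used for Pcdh8 elsewhere was higher in every library, and the 3-month table had 1 row of this name. With rows of one name summed, the Nex log2 change of Pcdh8 was 0.62 (limma adjusted p = 0.00334). Of the results here, no other met a rule for a closer look, and groups of 2 and 3 libraries were too small for a test of outlying samples.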

How the results depend on the processing

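With all 6 Nex libraries 5 members were called. The number was 3 with no filter on low values, 2 with a filter of FPKM 5 (under which Cdh4 and Cdh9 were not tested), 3 with quantile normalization, 3 with median ratio rescaling, 2 after rescaling to named rows, and 2 to 5 when each library was left out in turn. Cdh4 and Pcdh8 were called in each setting that tested them, and no sign turned among the 5. Rescaling to named rows moved the median of all genes by 0.10, and Cdh9 and Cdh11 then had log2 changes of -0.45 and -0.19. It raised the share of higher genes among all calls to 75.4%, against 52.4%, and median ratio rescaling to 67.5%. The Camk2a count was 0 in every setting, including leaving out a library, where the lone sample is assumed to vary like the others. The count of members differing between models was 0 to 1 over the libraries left out. With the replicate block, 3 members were called in the Nex model, 2 higher and 1 lower, and Cdh11 and Cdh24 had limma adjusted p of 0.108 and 0.0826. Same-numbered Nex deviations correlated at 0.02, -0.10 and -0.10, and not every sample correlated best with its own number. In the Camk2a model the correlation was 0.05 for same numbers and -0.05 for different numbers. Deviations were taken from group means, which ties these correlations to each other. They therefore cannot decide whether same-numbered samples were paired. The cause of lost calls was not tested. Depth is unknown for the Nex libraries, and 2 libraries per group limit what the Camk2a model can show.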
